A study of Homo sapiens with 60 samples.

Results

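The heat shock and cytosolic chaperone module is a set of 44 genes, taken by symbol from the deposited table of estimated counts, which lists 60675 gene entries in 60 libraries. All 44 symbols matched 1 entry each. They fall into 10 roles: HSP70 and HSP110 proteins (8 genes), HSP90 (2), J proteins (8), BAG proteins (2), small heat shock proteins (3), the mitochondrial chaperonin (2), the cytosolic chaperonin TRiC (8), co-chaperones of HSP90 and HSP70 (8), heat shock factors (2) and SERPINH1, a collagen chaperone of the endoplasmic reticulum.

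Molecular chaperones bind unfolded or unstable proteins and help them fold, refold or be degraded. HSP70 proteins bind exposed hydrophobic stretches under the control of J proteins, which stimulate their ATPase, and of nucleotide exchange factors such as the HSP110 and BAG proteins, and they hand clients to HSP90 through adaptor co-chaperones. When unfolded protein builds up, the transcription factor HSF1 is released from chaperones, forms trimers and binds heat shock elements, which are inverted repeats of the unit GAA, at the start of genes such as HSPA1A, HSPA6 and DNAJB1. Constitutive members such as HSPA8 and HSP90AB1 are abundant in growing cells, while HSPA6 is nearly silent without stress.

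The cells were HT29, an established human colorectal adenocarcinoma line, treated for 24 h with a 70% ethanol extract of a dried medicinal plant or with vehicle (3 libraries). Extracts of Astragali Radix, Cinnamomi Cortex, Cnidii Rhizoma, Paeoniae Radix and Rehmanniae Radix Preparata were given at 500 (high), 100 (medium) and 20 µg/mL (low), with 3 libraries a dose. Angelicae Gigantis Radix was given at 320, 64 and 12.8 µg/mL with 2 libraries a dose, numbered 2 and 3 in the labels. The formulas Sagunja-tang and Samul-tang were given at 500, 100 and 20 µg/mL with 1 library a dose. The labels give the vehicle as 0.1% DMSO and the series text as 2% DMSO, and neither says whether replicate libraries are separate cultures. The p-values therefore measure library-to-library spread only, and part of it may be technical.

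Library totals ran from 17798492 to 31134188 estimated counts. Of the marker lists, all 9 colon epithelium genes passed 1 CPM (counts scaled to a library total of 1e+06) in at least 1 library, as did 1 of 4 leukocyte genes (CD68), 1 of 4 fibroblast genes and 1 of 3 endothelial genes. The 3 high-dose Astragali Radix libraries stood apart from the other 57 and from each other, and results that rest on them are given library by library and without each in turn. Their mitochondrial share of counts was 1.99%, 6.72% and 7.82%, against 6.91% to 12.3% in the other 57 libraries. Their leukocyte list summed to 24.9, 54.7 and 22.9 CPM, against 5.69 to 6.27 CPM at the low dose, and their fibroblast list to 7.42, 3.57 and 4.10 CPM, against 1.35 to 1.46 CPM. Their colon epithelium list also summed higher, at 19701, 13624 and 16899 CPM, against 12327 to 12670 CPM, but its genes did not all move the same way. Relative to the dose change of Cnidii Rhizoma (log2, edgeR), KRT8 (1.25), KRT18 (1.15) and EPCAM (0.76) were higher, and CDX2 (-1.40) and VIL1 (-0.48) lower. CDH1, KRT20, LGALS4 and CDX1 did not pass in that comparison. The part of these values in the chaperone results was not tested. In bulk RNA, fewer cells of a type and less RNA per cell cannot be told apart.

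In vehicle-treated cells, the level per kilobase of merged exon was highest for HSP90AB1, the constitutive cytosolic HSP90, at 626 ± 29.2 CPM per kb (SD, n = 3). HSPA8, the constitutive HSP70, followed at 546 ± 4.16 CPM per kb, and these neighbours in the order did not overlap by their SD. HSPD1, the mitochondrial chaperonin ring, at 223 ± 19.1 CPM per kb and HSP90AA1, the inducible HSP90, at 212 ± 10.5 CPM per kb came next and overlapped. The lowest were HSPA6 at 0.10 ± 0.034, CRYAB at 0.049 ± 0.011 and HSPB8 at 0.021 ± 0.018 CPM per kb. HSPA1A at 111 ± 2.42 and HSPB1 at 96.7 ± 7.76 CPM per kb were thus well expressed in cells given vehicle without an extract. Between genes these values depend on the merged exon length, which can exceed the length of the transcript used. All later levels are in CPM of the library total.

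Across the 60 libraries together, the module took 1.29% to 1.59% of all counts in the 57 libraries outside the high Astragali Radix dose, with a median of 1.42%. In the 3 high-dose Astragali Radix libraries it took 3.31%, 3.08% and 4.38%, above each of the others. HSPA1A, HSPA1B and HSPA6 summed to 0.053% to 0.083% of counts in the 57 libraries and to 0.48%, 0.40% and 1.33% in these 3.

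At the high dose of Astragali Radix, 35 of the 44 members rose against the low dose and none fell (edgeR's quasi-likelihood test on these 6 libraries, Benjamini-Hochberg adjusted p under 0.05, here "adjusted p"). Among the 15236 genes tested, 21.5% rose and 18% fell. HSPA6, CRYAB and HSPB8 passed the filter on low counts only through the high-dose libraries, in all fits of this dose. Their rise was thus a condition of being tested, and their calls are no separate support. The median log2 change was 1.39 over the members and 0.017 over all genes tested. Of the 9 members that did not pass, 8 had a log2 change above 0, of which HSPA4, CCT5 and CCT8 turned below 0 with library totals. Libraries were scaled by TMM, the trimmed mean of M values, which assumes that most genes do not change. With library totals as the scale the median over all genes was 0.37 lower (log2), and 28 members rose and 1 fell. In CPM, all 3 high-dose libraries lay above all 3 low-dose libraries for 34 members (17.6% of genes) and below them for 2 members (45.3% of genes). DESeq2 called 38 higher and 0 lower, and leaving out 1 library at a time gave 26 to 39 calls.

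HSPA6, the strictly stress-inducible HSP70, had 659, 611 and 3189 CPM in high-dose libraries 1, 2 and 3, and 0.340, 0.209 and 0.174 CPM at the low dose. The groups lie over 3 orders apart on the log10 scale, with library 3 well above the other 2. The log2 change was 13.00 ± 1.18, adjusted p = 0.00067 (± SE throughout for changes), and 11.65 without library 3. HSPA6 lies at chr1:161524540-161526910 on the plus strand and HSPA1A at chr6:31815464-31817946 on the plus strand (GRCh38, GENCODE annotation). The low-dose group held 21 HSPA6 counts in all 3 libraries together, so the size of this ratio rests on few counts. HSPA6 entered this fit only through the high-dose libraries, so its p-value is no separate support. In all 57 libraries outside the high Astragali Radix dose HSPA6 had 1 to 28 counts, with a median of 7, and reached at most 0.923 CPM. HSPA7, a near-identical copy of HSPA6 annotated as a pseudogene, had 192, 166 and 686 counts in the 3 high-dose libraries and 0 in the low-dose group. Reads of the 2 genes may be split between them, and their sum changed by 13.02 ± 1.18, adjusted p = 0.00066. HSPA7 and the sum also entered their fits only through the high-dose libraries, so neither is separate support.

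HSPA1A and HSPA1B encode the same major inducible HSP70 protein and share reads, so each single value is uncertain. HSPA1A had 1860.5, 1528 and 4614 CPM at the high dose and 315, 282 and 291 CPM at the low dose. HSPA1B had 2284, 1819 and 5459 CPM against 337, 312 and 307 CPM. In both genes the groups did not overlap and library 3 was over 2 times each of the others. The log2 change was 3.59 ± 0.51, adjusted p = 0.0027 for HSPA1A and 3.74 ± 0.51, adjusted p = 0.0023 for HSPA1B, or 3.67 ± 0.52 with the 2 added together. Without library 3 the changes were 2.83 and 3.00.

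Of the other HSP70 genes, HSPH1, the main HSP110, rose by 2.7 ± 0.20, adjusted p = 0.00041, with 2929.9, 2762 and 1799 CPM against 499, 490.0 and 480.1 CPM. Here library 3 was the lowest of the 3, the reverse of HSPA1A. HSPA8 rose by 1.2 ± 0.21, adjusted p = 0.0051, from 2667 ± 22.8 to 4725 ± 553 CPM (SD, n = 3 each). HSPA4L, another HSP110, rose by 1.06 (adjusted p = 0.0038). HSPA4, also an HSP110, had 323, 261 and 96.0 CPM against 248, 233 and 243 CPM and did not pass: libraries 1 and 2 were above the low-dose libraries and library 3 was below them all. HSPA2, an HSP70 best known from testis, had 2.53, 4.89 and 18.3 CPM against 2.35, 2.40 and 2.95 CPM and did not pass either (2.18 ± 0.74, adjusted p = 0.054).

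**Figure D1:**
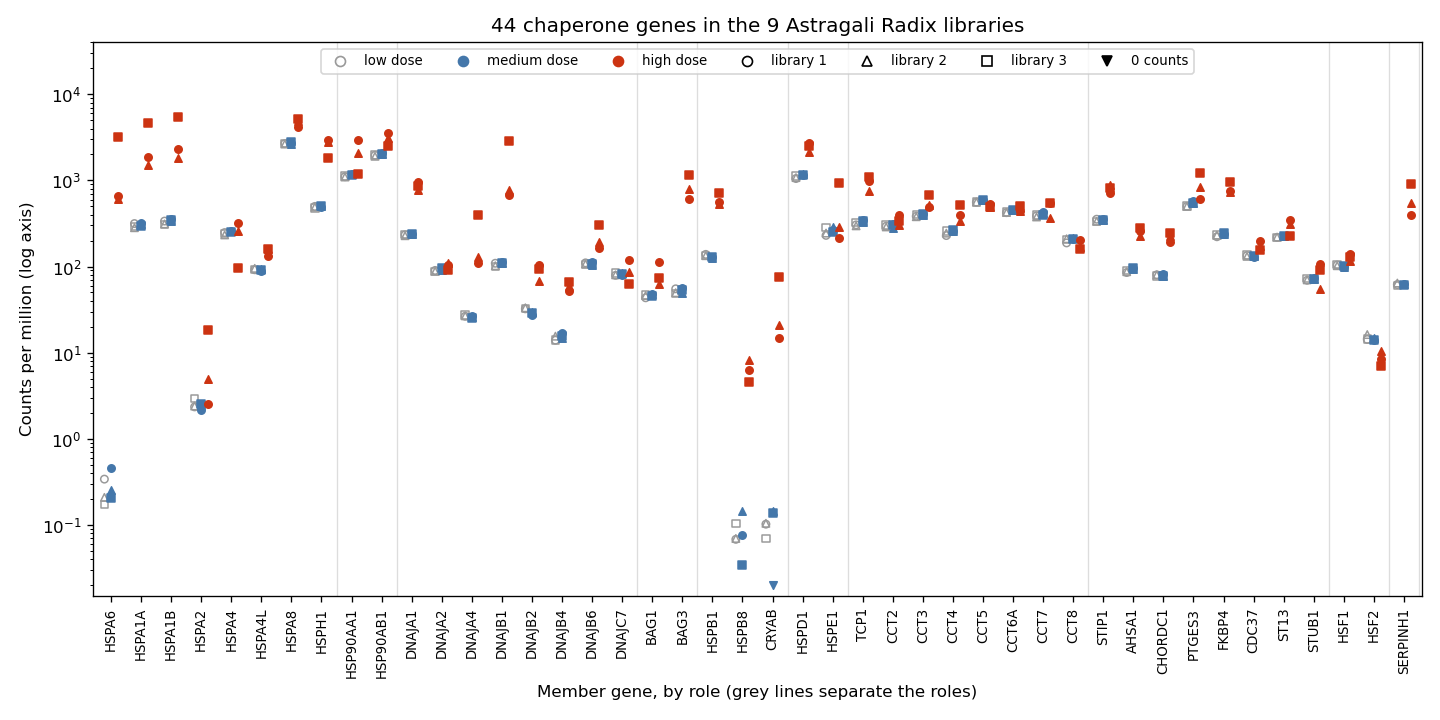
Level of each of the 44 genes (CPM, log axis) in the 9 Astragali Radix libraries, ordered by role: grey open marks are the low, blue the medium and red the high dose, the marker shape is the library number, and downward triangles mark 0 counts. HSPA6 and CRYAB lie below 1 CPM at the low and medium dose and above 10 CPM at the high dose, while HSPE1 and HSPA4 of the high dose straddle their low-dose levels.

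The sequence around the start of these genes was searched for exact matches to the repeat that heat shock factors bind. Variant units and sequence outside the windows were not searched, and binding was not measured. Windows from 250 bases before to 50 bases after the annotated start came from RefSeq (GRCh38.p14) and were found for 38 of the 44 members. They were searched on both strands for the 3-unit motif GAANNTTCNNGAA and for the 2-unit motifs GAANNTTC and TTCNNGAA, which lie inside it. The 250 bases before the start are printed for 4 members that hold the 3-unit motif, and for HSPA1A, which holds a single 2-unit motif. Sequences are 5′ to 3′ on the gene's strand and capitals mark the motifs.
HSPA6: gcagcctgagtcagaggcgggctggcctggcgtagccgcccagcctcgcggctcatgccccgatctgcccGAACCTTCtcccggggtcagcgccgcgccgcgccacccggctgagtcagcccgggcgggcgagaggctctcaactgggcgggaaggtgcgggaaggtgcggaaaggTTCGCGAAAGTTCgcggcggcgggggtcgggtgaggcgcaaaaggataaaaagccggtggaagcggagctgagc
HSPA8: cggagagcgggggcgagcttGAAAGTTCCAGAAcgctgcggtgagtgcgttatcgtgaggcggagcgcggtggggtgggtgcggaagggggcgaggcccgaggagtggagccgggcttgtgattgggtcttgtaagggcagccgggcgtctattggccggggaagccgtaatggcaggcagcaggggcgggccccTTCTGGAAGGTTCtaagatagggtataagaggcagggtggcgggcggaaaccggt
CHORDC1: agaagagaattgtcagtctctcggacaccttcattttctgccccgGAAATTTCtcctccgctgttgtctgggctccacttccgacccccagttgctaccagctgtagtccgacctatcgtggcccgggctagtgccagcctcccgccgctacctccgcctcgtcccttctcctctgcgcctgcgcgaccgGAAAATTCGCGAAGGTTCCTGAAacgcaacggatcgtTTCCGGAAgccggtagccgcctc
SERPINH1: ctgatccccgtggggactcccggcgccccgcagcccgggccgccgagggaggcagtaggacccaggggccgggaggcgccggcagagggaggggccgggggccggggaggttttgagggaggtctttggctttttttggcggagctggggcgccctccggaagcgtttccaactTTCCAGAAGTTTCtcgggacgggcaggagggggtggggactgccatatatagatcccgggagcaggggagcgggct
HSPA1A: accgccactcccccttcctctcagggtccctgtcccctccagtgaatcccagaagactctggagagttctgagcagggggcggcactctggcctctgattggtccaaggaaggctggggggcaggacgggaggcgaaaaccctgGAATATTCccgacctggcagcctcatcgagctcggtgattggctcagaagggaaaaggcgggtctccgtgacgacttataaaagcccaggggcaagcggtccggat

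These lie at chr1:161524290-161524539 (plus strand) for HSPA6, chr11:123062137-123062386 (minus strand) for HSPA8, chr11:90223050-90223299 (minus strand) for CHORDC1, chr11:75562003-75562252 (plus strand) for SERPINH1 and chr6:31815293-31815542 (plus strand) for HSPA1A. The 3-unit motif was present in 6 of 38 member windows (15.8%), those of HSPA6, HSPA8, DNAJA1, DNAJB6, CHORDC1 and SERPINH1, and in 0.49% of 35116 windows of all genes. Any 2-unit motif was present in 12 of 38 (31.6%) and in 13.5% of all windows. In HSPA6 the 3-unit motif began 74 bases before the start, in SERPINH1 76 bases before, and CHORDC1 held 3 overlapping copies beginning 60, 55 and 50 bases before its start. In DNAJA1 it began 3 bases after the start. All 6 members with the 3-unit motif and all 6 with a 2-unit motif alone rose at the high dose of Astragali Radix, as did 19 of the 26 with neither. Median log2 changes were 2.07, 3.07 and 1.23 in that order, as a description. HSPA6 in the first group and HSPB8 in the second entered the fit only through the high-dose libraries, so their rise was a condition of being tested. Whether the motifs go with the rise was not tested. HSPH1, DNAJB1 and BAG3 had no match in these windows. HSPD1 and HSPE1, which are transcribed in opposite directions, share 204 bases of their windows on chromosome 2.

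Both HSP90 genes passed, with smaller log2 changes than HSPA1A, HSPA1B and HSPH1, a difference that was not tested. HSP90AA1 had 2976, 2106 and 1184 CPM against 1105, 1095 and 1119 CPM (1.25 ± 0.29, adjusted p = 0.014). Library 3 sat just above the low-dose libraries and library 1 furthest from them. The call was lost with library totals (adjusted p = 0.054) and without any 1 of low-dose libraries 1, 2 or 3 (adjusted p = 0.063, 0.066 and 0.062). HSP90AB1 had 3585, 3136 and 2531 CPM against 1956, 1905 and 1982 CPM, with no overlap and the same order of libraries (1.02 ± 0.17, adjusted p = 0.0047).

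Of 8 J proteins, 7 rose. DNAJB1, the main J protein of the heat shock response, had 677, 778 and 2862 CPM against 109, 102 and 100.4 CPM (4.23 ± 0.68, adjusted p = 0.0039). DNAJA4 had 111, 128 and 391 CPM against 26.5, 26.8 and 27.3 CPM (3.40 ± 0.57, adjusted p = 0.0047). In both, library 3 was over 3 times each of the others, and without it the changes were 3.13 and 2.48. DNAJB4 with 52.3, 59.3 and 66.2 CPM and DNAJA1, a partner of HSPA8 in the cytosol, with 963, 768 and 857 CPM were more even among the 3 libraries. Their changes were 2.41 ± 0.19, adjusted p = 0.00050, and 2.26 ± 0.17, adjusted p = 0.00041. DNAJB2, DNAJB6 and DNAJA2 rose by 1.81, 1.42 and 0.56, and DNAJC7 did not pass (0.48 ± 0.20, adjusted p = 0.094).

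BAG3, a partner of HSP70 in selective autophagy, had 602, 798 and 1163 CPM at the high dose against 55.1, 49.7 and 49.0 CPM (4.45 ± 0.34, adjusted p = 0.00047). Its lowest high-dose library was above 10 times the highest low-dose library. BAG1, which links HSP70 to the proteasome, rose by 1.24 ± 0.23, adjusted p = 0.0062.

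All 3 small heat shock proteins, which hold unfolded protein without using ATP, rose. HSPB1 had 565, 529 and 714 CPM against 138, 134 and 134 CPM (2.54 ± 0.21, adjusted p = 0.00056). CRYAB, alpha-B crystallin, had 14.9, 20.9 and 74.8 CPM (266, 462 and 1533 counts), while the low-dose group held 8 counts. HSPB8, the small heat shock partner of BAG3, had 6.35, 8.32 and 4.59 CPM (113, 184 and 94 counts), while the low-dose group held 7 counts. Library 3 was the highest for CRYAB and the lowest for HSPB8. The fitted changes were 9.0 ± 1.01, adjusted p = 0.0012 for CRYAB (7.85 without library 3) and 6.57 ± 0.35, adjusted p = 0.00019 for HSPB8. Both genes entered this fit only through the high-dose libraries, so these p-values are no separate support. Outside this dose CRYAB had 0 to 10 counts and HSPB8 0 to 5 counts in each of 57 libraries, below what the shared fit could test.

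HSPD1 rose by 1.55 ± 0.18, adjusted p = 0.0014, with 2729, 2155 and 2483 CPM against 1051, 1077 and 1124 CPM. Its partner HSPE1, the lid of the mitochondrial chaperonin, had 214, 291 and 926 CPM against 229.9, 245 and 283 CPM and did not pass (1.35 ± 0.58, adjusted p = 0.11). Library 3 was over 3 times library 2 and above every low-dose library, while library 1 was below them.

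TRiC is a ring of 8 different subunits, and the 8 genes moved unequally. TCP1, its first subunit, rose by 2.00 ± 0.22, adjusted p = 0.0012, with 975, 750.0 and 1107 CPM against 305, 297 and 323 CPM. CCT4, CCT3, CCT7 and CCT2 rose by 1.15, 0.91, 0.71 and 0.58. For CCT4 and CCT3 each high-dose library lay above all low-dose libraries. In high-dose library 2, CCT7 (363 CPM) lay below all low-dose libraries (387, 376 and 397 CPM). CCT2 (299.7 CPM) lay within their range there (294, 288 and 304 CPM). CCT6A, CCT5 and CCT8 did not pass, at 0.49 ± 0.17, 0.21 ± 0.14 and 0.18 ± 0.14. The direction of CCT5 and CCT8 turned with library totals (-0.16 and -0.18, neither passing). By CPM, CCT5 was lower in all 3 high-dose libraries (526, 493 and 488 CPM against 557, 560.4 and 564 CPM), and the call of CCT7 was lost with library totals (adjusted p = 0.21). CCT3 and CCT7 were also lost without any 1 low-dose library (adjusted p = 0.073, 0.076 and 0.066 for CCT3, and 0.13, 0.14 and 0.12 for CCT7), CCT7 without high-dose library 1 (adjusted p = 0.085), and CCT4 without low-dose library 1 (adjusted p = 0.051).

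Of 8 co-chaperones, 7 rose. FKBP4, an HSP90-binding immunophilin of steroid receptor complexes, had 759, 737 and 954 CPM against 222, 231 and 232 CPM (2.22 ± 0.21, adjusted p = 0.00070). AHSA1, which stimulates the HSP90 ATPase, rose by 1.93 ± 0.17, adjusted p = 0.00063. CHORDC1, a CHORD-domain partner of HSP90, rose by 1.87 ± 0.18, adjusted p = 0.00081. STIP1, the HSP70-HSP90 adaptor known as HOP, rose by 1.62 ± 0.17, adjusted p = 0.00097. PTGES3 (p23), ST13 (the HSP70 partner HIP) and CDC37, which brings kinases to HSP90, rose by 1.23, 0.80 and 0.76. STUB1, the ubiquitin ligase CHIP, did not pass (0.63 ± 0.26, adjusted p = 0.092). SERPINH1 rose by 3.71 ± 0.38, adjusted p = 0.00095, with 395, 544 and 905 CPM against 61.9, 64.3 and 60.0 CPM.

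Of the 2 heat shock factors, 1 passed. HSF1 had 139, 115 and 128 CPM against 104, 102 and 106 CPM (0.66 ± 0.15, adjusted p = 0.013). That call was lost with library totals (0.29, adjusted p = 0.14), with no filter on low counts (adjusted p = 0.067) and without any 1 low-dose library (adjusted p = 0.072, 0.080 and 0.069). HSF2 had 8.37, 10.4 and 6.93 CPM against 14.2, 16.2 and 14.5 CPM, all 3 libraries lower, and did not pass (-0.45 ± 0.17, adjusted p = 0.077). It passed with library totals (-0.81, adjusted p = 0.016) and without high-dose library 2 (-0.59, adjusted p = 0.025).

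Taken one by one, the 3 high-dose libraries fell into different orders for different members. Library 3 was the highest for 24 members, library 1 for 16 and library 2 for 4. Library 3 was over 1.5 times both others for 10 members, among them HSPA6, HSPA1A, HSPA1B, DNAJB1, DNAJA4, CRYAB, HSPE1 and HSPA2, and under both by that factor for 3. Library 1 exceeded both others by that factor for 1 member and library 2 for none. By CPM, 39, 38 and 39 members lay above the highest low-dose library in libraries 1, 2 and 3. The shares of all genes with these orders were not counted, nor those above the low-dose libraries in each single library. Whether the orders or these counts are particular to the members was therefore not tested. Genes detected were 21959, 21841 and 24191 in libraries 1, 2 and 3. Summed over the HSP70 and HSP110 genes, the level was 12315, 11984 and 20549 CPM in libraries 1, 2 and 3, against 4057 to 4169 CPM at the low dose. Summed over the 2 HSP90 genes it ran the other way, at 6562, 5243 and 3715 CPM, against 3000 to 3102 CPM.

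**Figure D2:**
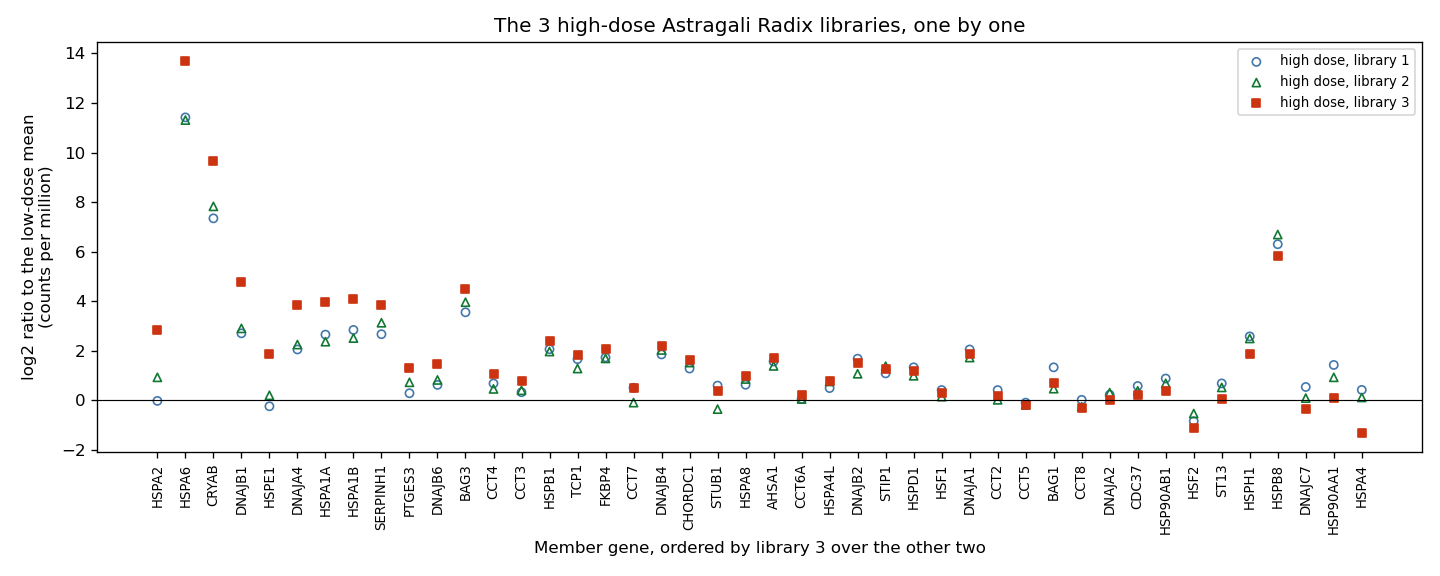
Log2 ratio of each high-dose Astragali Radix library to the mean of the 3 low-dose libraries (CPM) for the 44 genes, ordered from the genes highest in library 3 on the left to those lowest in it on the right. Library 3 stands above the other 2 for HSPA6, CRYAB, DNAJB1 and HSPA1A, and below them for HSP90AA1 and HSPA4.

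Genes of the same pathway outside the module were counted by list. Of 14 other heat shock factor targets, 11 rose and none fell at the high dose of Astragali Radix, with a median log2 change of 2.04. HSPA7 entered this fit only through the high-dose libraries, so its rise was a condition of being tested and is no separate support. The largest were HSPA7, given above, ZFAND2A, a proteasome-associated protein (6.2, 264, 311 and 608 CPM against 7.21, 7.32 and 6.77 CPM), CLU, the secreted chaperone clusterin (4.97), and IER5 (3.67). The other lists are read against the 21.5% of all genes that rose and the 18% that fell. Of 12 other J proteins 3 rose, a share near that of all genes, of 10 other HSP70 partners 6 rose, and of 6 prefoldin subunits, which deliver actin and tubulin to TRiC, 1 rose, also near that share, with none lower in these 3 lists. Of 9 other HSP90 co-chaperones 3 rose and FKBP5, an immunophilin related to FKBP4, fell by 0.90 on the log2 scale (adjusted p = 0.011).

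Against vehicle, the high Astragali Radix dose gave 38 members higher and none lower, where 23.0% of the 14851 genes tested rose and 18.8% fell. HSPA6 changed by 12.96 ± 1.17, adjusted p = 0.00056 and HSPA1A by 3.64 ± 0.51, adjusted p = 0.0022. This comparison shares the high-dose libraries with the one above. HSPA6, CRYAB and HSPB8 again entered the fit only through these libraries, so their values are no separate support.

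At the medium dose of Astragali Radix the changes of the module were small. Against the low dose 20 of 42 members tested rose and none fell, where 7.11% of 16608 genes rose and 9.21% fell (edgeR on 51 libraries with a shared spread). Of the 8 TRiC subunits 7 rose, by 0.11 to 0.18, led by TCP1 (0.18 ± 0.039, adjusted p = 0.00047). PTGES3 (0.20), AHSA1 (0.19), HSPD1 (0.17), HSP90AA1 (0.15), FKBP4 (0.13) and DNAJB1 (0.16) also rose. HSPA1A and HSPA1B together rose by 0.16 ± 0.041 (adjusted p = 0.0052). HSPA6, at 0.463, 0.255 and 0.208 CPM, overlapped its low-dose level (0.39 ± 0.49, adjusted p = 0.65), and BAG3, HSPB1 and SERPINH1 did not pass (0.10, -0.023 and 0.060). With library totals 5 members rose and 1 fell, and with the spread shared over all 54 replicated libraries 3 rose.

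Among the other extracts, Cnidii Rhizoma had the largest change of HSPA1A and HSPA1B from its low to its high dose. At its high dose 15 of 42 members tested rose and 3 fell against its low dose, where 11.9% of all genes rose and 11.5% fell. HSPA1A had 387, 368 and 365 CPM against 305, 288 and 279 CPM, with no overlap (0.41 ± 0.045, adjusted p = 1.9e-10). HSPA1B had 439, 423 and 408 CPM against 329, 316 and 305 CPM (0.47 ± 0.052, adjusted p = 1.5e-09). Added together they rose by 0.44 ± 0.041 (adjusted p = 6.2e-13).

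The largest rise at this dose was that of DNAJB4, with 25.4, 23.0 and 21.4 CPM against 14.8, 13.7 and 15.9 CPM (0.70 ± 0.075, adjusted p = 3.7e-11). BAG3 (60.1, 58.3 and 59.4 against 50.2, 52.6 and 46.1 CPM, 0.30 ± 0.074, adjusted p = 0.0017) and FKBP4 (264, 272 and 267 against 225, 230.0 and 232 CPM, 0.27 ± 0.029, adjusted p = 2.3e-11) also rose without overlap. HSPA6 was at 0.602, 0.721 and 0.266 CPM against 0.306, 0.198 and 0.346 CPM and did not pass (0.93 ± 0.45, adjusted p = 0.14). It passed in none of the other 4 extracts either, at -0.18 ± 0.53 with Paeoniae Radix, -0.70 ± 0.55 with Rehmanniae Radix Preparata, -0.76 ± 0.44 with Cinnamomi Cortex and 1.25 ± 0.78 with Angelicae Gigantis Radix, all on few counts. The members that fell were HSPA2 (-0.55 ± 0.15, adjusted p = 0.0054), HSPB1 (-0.24 ± 0.052, adjusted p = 0.00041) and HSPA4L (-0.19 ± 0.040, adjusted p = 0.00019). No TRiC subunit passed, and HSF1 and HSF2 changed by 0.038 and 0.0080, neither passing. With the spread shared over all 54 replicated libraries, 8 members passed (6 higher, 2 lower) and HSPA1A and HSPA1B did not (adjusted p = 0.17 and 0.096). The call of HSPA2 was lost without high-dose library 2 (adjusted p = 0.055) and without low-dose library 2 (adjusted p = 0.057).

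At the medium dose of Cnidii Rhizoma 6 members rose and none fell, where 1.54% of genes rose. They were HSPH1 (0.18), FKBP4 (0.17), CHORDC1 (0.14), TCP1 (0.13), CCT6A (0.12) and HSPD1 (0.12). HSPA1A was at 304, 291 and 306 CPM, overlapping its low-dose values, and did not pass (0.067 ± 0.045, adjusted p = 0.53). With the spread shared over 54 libraries no member passed, and with the 2 groups compared alone 12 did. The count was 2 or 3 without any 1 of medium-dose libraries 1, 2 and 3 or of low-dose libraries 1 and 2.

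Of the pathway lists at the high dose of Cnidii Rhizoma, where 11.9% of all genes rose and 11.5% fell, 3 of 13 other heat shock factor targets tested rose, among them ZFAND2A (0.60) and DEDD2 (0.31). RGS2, a regulator of G-protein signalling, fell by 1.00 (adjusted p = 1.6e-16). Of 10 other HSP70 partners 5 rose and 1 fell, led by HSPA13 (0.73). Among 12 other J proteins 2 rose, among 9 other HSP90 co-chaperones PPID alone rose (0.18), both near the share of all genes, and no prefoldin subunit passed.

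The high-minus-low change of Cnidii Rhizoma was tested against those of the other extracts given at the same doses. It exceeded that of Paeoniae Radix for 9 members and lay below it for 1, where 7.27% of genes were higher and 7.7% lower. Against Rehmanniae Radix Preparata the counts were 4 and 3 (all genes 6.17% and 6.03%), and against Cinnamomi Cortex 5 and 2 (7.0% and 6.3%). HSPA1A differed in each, by 0.48 ± 0.063, adjusted p = 5.9e-08 from Paeoniae Radix, by 0.34 ± 0.063, adjusted p = 5.8e-05 from Rehmanniae Radix Preparata and by 0.45 ± 0.063, adjusted p = 2.6e-07 from Cinnamomi Cortex. DNAJB4 also differed in each, by 0.56, 0.77 and 0.74. HSPA4L was lower in each, by -0.25, -0.22 and -0.26. With the spread shared over 54 libraries DNAJB4 was the member that passed in each (adjusted p = 0.0057, 7.2e-05 and 0.00013), while HSPA1A and HSPA4L did not. The 3 differences share the Cnidii Rhizoma libraries.

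The change of Astragali Radix exceeded that of Cnidii Rhizoma for 37 of 44 members and lay below it for none (12 libraries of the 4 groups, 19.8% of 15919 genes higher and 17.6% lower). HSPA6 differed by 12.04 ± 1.87, adjusted p = 0.00058 and HSPA1A by 3.16 ± 0.49, adjusted p = 0.00056. HSPA6, CRYAB and HSPB8 entered this fit only through the high Astragali Radix dose, so their calls are no separate support. HSPB1, which rose in 1 extract and fell in the other, differed by 2.77 ± 0.19, adjusted p = 2.9e-06. The 7 that did not pass were HSPA4, DNAJC7, HSPE1, CCT5, CCT8, STUB1 and HSF2.

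**Figure D3:**
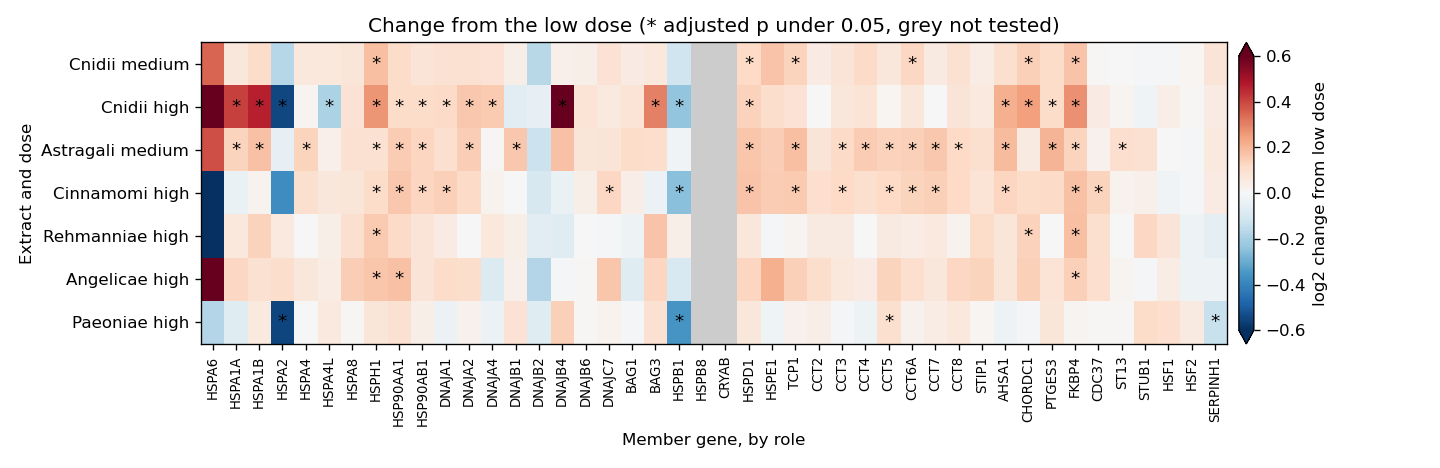
Log2 change from the low dose of the same extract (colour, clipped at -0.6 and 0.6) for the 44 genes at the high dose of 5 extracts and the medium dose of Cnidii Rhizoma and Astragali Radix, with asterisks where the adjusted p was under 0.05 and grey where a gene was not tested. FKBP4 and HSPH1 carry an asterisk in every row but that of Paeoniae Radix, DNAJB4 and HSPA1A are most intense at the high dose of Cnidii Rhizoma, and HSPA6 is dark in several rows without an asterisk.

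FKBP4 and HSPH1 were the members that rose in the most extracts: each rose from the low to the high dose in 5 of 6, all but Paeoniae Radix. Of the others, HSP90AA1 rose in 4 extracts, and HSP90AB1, DNAJA1, HSPD1, AHSA1 and CHORDC1 in 3 each, while 6 members rose in none. The share of all genes that rose in as many extracts was not counted, so whether this is particular to the members was not tested. The Astragali Radix calls come from its own fit and the others from the shared fit. FKBP4 rose by 0.18 ± 0.029, adjusted p = 3.4e-05 with Rehmanniae Radix Preparata, from 216, 208 and 216 CPM to 237, 243 and 239 CPM. With Cinnamomi Cortex it rose by 0.18 ± 0.029, adjusted p = 4.1e-05, from 213, 220.3 and 229.7 CPM to 245, 246 and 249 CPM. With Angelicae Gigantis Radix, at its own doses and with 2 libraries a group, it rose by 0.14 ± 0.035, adjusted p = 0.023, from 229 and 228 CPM to 249 and 249 CPM. In these 3 extracts the groups did not overlap. With Paeoniae Radix it was at 230.4, 224 and 216 CPM against 216, 225 and 229.9 CPM and did not pass (0.017 ± 0.029, adjusted p = 0.81), and the rise with Cnidii Rhizoma exceeded this change by 0.26 ± 0.041, adjusted p = 2.6e-06.

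HSPH1 rose by 0.16 with Rehmanniae Radix Preparata, 0.11 with Cinnamomi Cortex and 0.17 with Angelicae Gigantis Radix (adjusted p = 0.0011, 0.017 and 0.0078), and by 0.27 with Cnidii Rhizoma. The largest of these 4 was 1.2-fold, with Cnidii Rhizoma, against 6.50-fold with Astragali Radix. With the spread shared over all 54 replicated libraries, FKBP4 passed with neither Rehmanniae Radix Preparata, Cinnamomi Cortex nor Angelicae Gigantis Radix (adjusted p = 0.55, 0.30 and 1.0). The FKBP4 call with Angelicae Gigantis Radix was also lost without any 1 of its high-dose or low-dose libraries 2 and 3, with adjusted p from 0.14 to 0.27, and with library totals (0.11).

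HSPB1, the small heat shock protein with the highest level, fell in 3 extracts. It fell with Paeoniae Radix (103, 113 and 101 CPM against 143, 130.0 and 136 CPM, -0.35 ± 0.052, adjusted p = 2.9e-06), with Cinnamomi Cortex (112, 106 and 110.3 against 138, 127 and 132 CPM, -0.25 ± 0.051, adjusted p = 0.0014) and with Cnidii Rhizoma (101, 98.1 and 102 against 129, 124 and 113 CPM). In each the high-dose libraries lay below all low-dose libraries, and in each the medium-dose mean was in between. With Rehmanniae Radix Preparata and Angelicae Gigantis Radix it did not pass (0.035 ± 0.051, adjusted p = 0.87, and -0.090 ± 0.063, adjusted p = 0.65). It changed less with Rehmanniae Radix Preparata than with Cnidii Rhizoma (difference -0.27 ± 0.073, adjusted p = 0.0072).

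**Figure D4:**
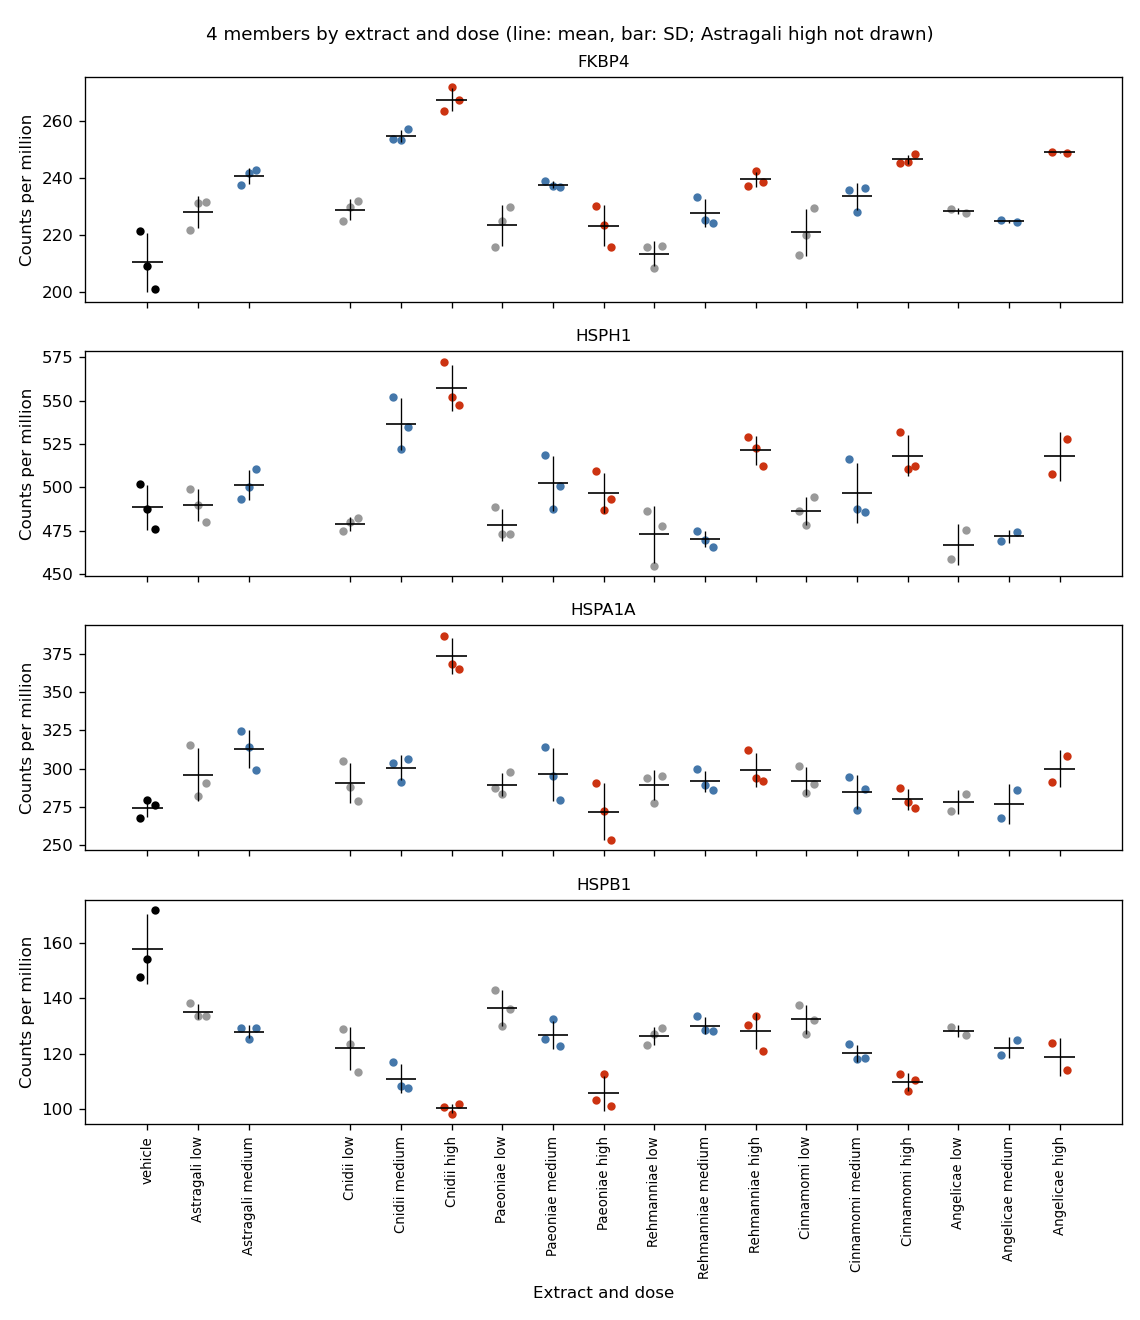
Level (CPM) of FKBP4, HSPH1, HSPA1A and HSPB1 in each library of the vehicle group (black) and of the low (grey), medium (blue) and high (red) doses of 6 extracts, with the mean as a line and the SD as a bar. The axes do not start at 0, and the high dose of Astragali Radix, far above the range for all 4, is not drawn; HSPA1A is highest at the high dose of Cnidii Rhizoma, and HSPB1 is highest in the vehicle.

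With Cinnamomi Cortex 14 of 42 members rose and 1 fell, where 3.16% of genes rose and 2.8% fell. After FKBP4, the largest were HSPD1 (0.17 ± 0.035, adjusted p = 0.0012), HSP90AA1 (0.16 ± 0.036, adjusted p = 0.0029), TCP1 (0.16 ± 0.039, adjusted p = 0.0082) and CCT7 (0.14 ± 0.034, adjusted p = 0.0058). The 14 included 5 TRiC subunits, and the largest fold, that of FKBP4, was 1.13. The call of TCP1 was lost without low-dose library 1 (adjusted p = 0.12), and that of CCT7 without low-dose library 1 and without high-dose library 2 (adjusted p = 0.088 and 0.063). HSPA1A and HSPA1B together did not change beyond their error (-0.0092 ± 0.041, adjusted p = 0.94). The count was 9 without high-dose library 1 and 8 without low-dose library 1, and no member passed with the spread shared over 54 libraries.

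With Paeoniae Radix 1 member rose and 3 fell (all genes 5.38% and 4.05%). Beside HSPB1, HSPA2 fell, with 1.93, 2.17 and 1.83 CPM against 2.95, 2.86 and 3.01 CPM (-0.55 ± 0.15, adjusted p = 0.0085), and SERPINH1 fell by 0.14 (adjusted p = 0.021). CCT5 rose by 0.10 ± 0.032, adjusted p = 0.041. CCT5 lost its call without any 1 of high-dose libraries 1, 2 and 3 or low-dose libraries 1 and 3 (adjusted p = 0.068 to 0.18), and SERPINH1 without high-dose library 1 or 3 or low-dose library 2 or 3 (adjusted p = 0.059 to 0.082). The counts were 2 without high-dose library 1, without high-dose library 3 and without low-dose library 3. HSPA1A was at 290.2, 272 and 253 CPM against 287, 283 and 298 CPM and did not pass.

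With Rehmanniae Radix Preparata 3 members rose, FKBP4, HSPH1 and CHORDC1 (0.14 ± 0.037, adjusted p = 0.039), and none fell (all genes 0.807% and 0.566%). The CHORDC1 call was lost without any 1 of high-dose libraries 1 and 3 or low-dose libraries 1, 2 and 3 (adjusted p = 0.057 to 0.18). With Angelicae Gigantis Radix 3 members rose, FKBP4, HSPH1 and HSP90AA1 (0.18 ± 0.044, adjusted p = 0.023), and none fell (all genes 0.668% and 0.53%). All 3 Angelicae Gigantis Radix calls were lost without low-dose library 2 and without high-dose library 3, 1 was left without high-dose library 2, and HSP90AA1 did not pass without any 1 of the 4 libraries (adjusted p = 0.075 to 0.31). In neither extract did any member pass with the spread shared over 54 libraries. At the medium dose no member passed with edgeR for Paeoniae Radix, Rehmanniae Radix Preparata, Cinnamomi Cortex or Angelicae Gigantis Radix, where 0.271%, 0.0%, 0.0% and 0.0% of all genes passed in either direction. At an unadjusted p under 0.05 there were 10, 7, 11 and 1 members. The share of all genes at that unadjusted threshold was not counted, so these counts are not read as a change of the members. DESeq2 called 1 member with Paeoniae Radix and 0 in each of the other 3. For Paeoniae Radix, edgeR called 1 without low-dose library 2 and 2 without medium-dose library 3.

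Against vehicle, the members called lower in the other 5 extracts were 2 to 5 of 42, a share near or under that of all genes. At the high dose 23 members were higher and 3 lower with Cnidii Rhizoma (all genes 20.0% and 18.1%). The counts were 16 and 3 with Cinnamomi Cortex (13.7% and 12.4%), 15 and 2 with Angelicae Gigantis Radix (11.2% and 8.83%), 11 and 5 with Paeoniae Radix (14.7% and 11.9%) and 10 and 2 with Rehmanniae Radix Preparata (12.1% and 10.1%). These 5 comparisons share the 3 vehicle libraries. HSPA1A and HSPA1B together were higher by 0.55 ± 0.041 with Cnidii Rhizoma, 0.18 ± 0.041 with Rehmanniae Radix Preparata, 0.17 ± 0.046 with Angelicae Gigantis Radix and 0.13 ± 0.041 with Paeoniae Radix, all passing, and by 0.083 ± 0.041 with Cinnamomi Cortex, which did not pass. With Angelicae Gigantis Radix 9 members passed without high-dose library 3. With the spread shared over 54 libraries the members called in either direction were 15 with Cnidii Rhizoma, 7 with Cinnamomi Cortex, 4 with Angelicae Gigantis Radix, 2 with Paeoniae Radix and 1 with Rehmanniae Radix Preparata. With library totals they were 25 with Rehmanniae Radix Preparata, and with the groups compared alone 10 with Paeoniae Radix.

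The vehicle itself differed from the low doses. All 3 vehicle libraries lay above all 17 low-dose libraries of the 6 extracts for BAG3, HSPB1 and ST13, and below them all for DNAJB2 and CCT7. Above all low-dose libraries lay 6.82% of the members and 3.65% of the 13664 genes with a median count of 20 or more, and below them 4.55% and 11.4%. BAG3 was at 56.9, 58.2 and 61.7 CPM and HSPB1 at 148, 154 and 172 CPM in the vehicle libraries.

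The 2 formulas had 1 library a dose, so their differences have no replicate check and no test. In log2 CPM with a prior count of 2, 36 of 42 members with at least 20 counts were higher at the high than at the low dose of Sagunja-tang and 34 of 41 in Samul-tang. Among all such genes 41.1% and 46.0% were higher. The median differences were 0.050 and 0.14 over the members and -0.031 and -0.017 over all genes. In Sagunja-tang 2 members and in Samul-tang 7 passed a 1.2-fold difference, where 19.2% and 21.8% of genes did. In Samul-tang HSPH1 went from 490.3 over 521 to 622 CPM and FKBP4 from 225 over 240.3 to 279.5 CPM from the low over the medium to the high dose, while HSPB1 went from 122 over 122 to 98.2 CPM. In Sagunja-tang HSPA1A went from 286 over 294 to 323 CPM. HSPA6 was highest in the high-dose Sagunja-tang library, at 0.550 CPM.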

How the data were processed

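The authors deposited 1 table of estimated counts per gene, made with FastQC 0.11.9, Trim Galore 0.6.5, STAR 2.7.3a and RSEM 1.3.3 on hg38, per the submitters' processing notes, from a directional library kit and 100 bp paired-end reads, per the labels' protocols. Of its 273 columns, 213 belong to none of the 60 libraries and were not used. Estimated counts (8.78% of values not whole) were rounded. Entries without a name, which held 0.05% of counts, stayed in the library totals and in the tests where they passed the filter.

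Tests used edgeR 4.0.16 (glmQLFit with robust estimation, glmQLFTest, TMM scaling, filterByExpr), with Benjamini-Hochberg adjustment over all genes tested and a threshold of 0.05. Comparisons of the high Astragali Radix dose were fitted on the groups compared alone (6 libraries, 12 for a difference). The others were fitted on 51 replicated libraries in 18 groups, which share a spread. The scripts were tested on simulated data. No comparison of 22 used a replicate block, since libraries of the same number deviated together weakly or not at all.

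Alternatives were DESeq2 1.42.0, no filter, the block, library totals, all 54 replicated libraries in 1 fit, the groups alone, 1 library left out, and near-identical copies added together. Promoters came from RefSeq, and gene positions and exon lengths from GENCODE. Genes named in full were the 2 heat shock factors, HSPA6, HSPA1A, HSPA1B, up to 4 called members of each role and direction for Astragali Radix, up to 5 per direction for each other extract, and up to 4 per pathway list. Others are named to account for every member. The members and lists were chosen with earlier results of these data known. Total counts set the precision: a gene with few counts, such as HSPA6 at the low dose, has a wide error.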

Additional observations from a re-analysis of the deposited data

How the results depend on the processing

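No single-gene result tried under the alternatives reversed. With library totals, 78 member changes over the 22 comparisons turned sign, none of them passing under either scale. Of 584 alternatives over 51 single-gene results, 501 kept the call, 80 lost it and 3 gained one, and DESeq2 changed none. Sharing the spread over all 54 libraries lost 19 of them and moved the counts of members called to 8 (Cnidii Rhizoma), 1 (Paeoniae Radix) and 0 (Rehmanniae Radix Preparata, Cinnamomi Cortex and Angelicae Gigantis Radix) for high against low, 3 (Astragali Radix) and 0 (Cnidii Rhizoma) for medium against low, 15, 2, 1, 7 and 4 against vehicle (Cnidii Rhizoma, Paeoniae Radix, Rehmanniae Radix Preparata, Cinnamomi Cortex, Angelicae Gigantis Radix), and 1 in each of the 3 Cnidii Rhizoma differences; the cause was not tested. Library totals gave 9 (Cinnamomi Cortex) and 1 (Angelicae Gigantis Radix) for high against low, 6 for Astragali Radix medium, and 25 for Rehmanniae Radix Preparata against vehicle. The groups compared alone gave 2 (Paeoniae Radix high), 9 (Cinnamomi Cortex high), 12 (Cnidii Rhizoma medium) and 10 (Paeoniae Radix against vehicle). No filter gave 2 for Paeoniae Radix high and 1 for Rehmanniae Radix Preparata medium. DESeq2 gave 5 for Angelicae Gigantis Radix high and 1 for Paeoniae Radix medium; the causes were not tested. Adding a replicate block gave 5 calls for Rehmanniae Radix Preparata high, 6 for Angelicae Gigantis Radix high and 1 for Paeoniae Radix medium, and the only single-gene call lost was CCT7 with Astragali Radix (adjusted p = 0.052). Deviations of libraries with the same number correlated from -0.058 to 0.12, and in no comparison were all above 0.1, so the numbers were not used as pairs. Angelicae Gigantis Radix, with 2 pairs, had too few to meet this rule. Whether libraries of the same number are weakly paired was not tested further.

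Leaving out 1 library at a time gave 14 to 21 calls for Cnidii Rhizoma, 2 to 4 for Paeoniae Radix, 2 to 3 for Rehmanniae Radix Preparata, 8 to 13 for Cinnamomi Cortex, 0 to 2 for Angelicae Gigantis Radix and 26 to 39 for Astragali Radix (high against low), 2 to 4 for Cnidii Rhizoma medium, 0 to 2 for Paeoniae Radix medium and 9 to 18 for Angelicae Gigantis Radix against vehicle. Where this left 1 Angelicae Gigantis Radix library, that library was assumed to vary like the other groups. Depth limits HSPA6, HSPA7, CRYAB and HSPB8, which had at most 28 counts in any library outside the high Astragali Radix dose.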

Other observations

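Genes of the pathway lists outside the module also moved in several extracts. HSPA13, a microsomal relative of HSP70, rose by 0.37 with Paeoniae Radix at the high dose (adjusted p = 5.8e-05, 26.0, 32.3 and 26.4 CPM against 21.1, 24.1 and 21.2 CPM), by 0.73 with Cnidii Rhizoma and by 0.21 with the medium dose of Astragali Radix (edgeR's quasi-likelihood test). RGS2 rose by 0.32 with Paeoniae Radix and fell by 1.00 with Cnidii Rhizoma, and the difference of the changes was -1.32 ± 0.10, adjusted p = 6.0e-16. TRAP1, the mitochondrial HSP90, rose by 0.19 with Angelicae Gigantis Radix, 0.15 with Paeoniae Radix and 0.11 with Cinnamomi Cortex. With Cinnamomi Cortex, HSPA9, the mitochondrial HSP70, and its exchange factor GRPEL1 rose by 0.15 and 0.17, beside HSPD1.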
